A study of Mus with 12 samples.

Results

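Liver tumours of mice given anti-PDL1 alone (3 mice) were set against liver tumours of mice given anti-CTLA4 alone (3 mice). These 6 libraries, chosen by their titles, are 6 of the 12 in the series. The other 6 came from 3 tumours treated with both antibodies, which were left out of the contrast, and from 3 treated with control IgG, whose values are given beside it. All mice carried MYC-HCC, a murine hepatocellular carcinoma named for the oncogene MYC. How MYC is driven, and the strain, age, sex, dose and day of collection, were not stated in the sources used here. Total RNA from formalin-fixed, paraffin-embedded tissue was read with the nCounter mouse IO360 panel, which counts a bar-coded probe for each of 770 immune and tumour genes.

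The antibodies act on different checkpoints of the T cell response. PD-L1, the product of Cd274, is a ligand on tumour and myeloid cells that inhibits T cells through the receptor PD-1, the product of Pdcd1. CTLA4 is a T cell receptor that competes with the costimulatory receptor CD28 for the ligands CD80 and CD86, and it is abundant on regulatory T cells.

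Values are normalized counts, that is, the counts of a library times 1 factor. A listed value of 20 is a floor, which can stand for any lower value and, where the factor is above 1, for values up to 20 times the factor. Factors were 0.657, 2.10 and 1.23 in Anti PDL1 mice 1, 2 and 3, and 2.25, 2.62 and 0.936 in Anti CTLA4 mice 1, 2 and 3. Recovered counts totalled 517366 to 832974 in the Anti PDL1 libraries and 439149 to 601142 in the Anti CTLA4 libraries. The 8 negative control probes, multiplied by the factor, averaged 31.0 in Anti PDL1 2, 26.1 in Anti CTLA4 1 and 36.4 in Anti CTLA4 2, and 8.0 to 15.7 in the other 3 libraries, so that low values of the first 3 lie near background. The contrast was tested in the 619 genes above the floor in at least 4 of the 6 libraries. Of the 151 other genes, 71 were at the floor in all 6.

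Anti PDL1 2, Anti CTLA4 1 and Anti CTLA4 2 stood apart from the other tumours. Apoe, an apolipoprotein gene that hepatocytes express highly, was at 44142, 455655 and 87838 normalized counts in Anti PDL1 mice 1, 2 and 3, against 189533, 307275 and 34684 in Anti CTLA4 mice 1, 2 and 3 and 29255 to 40050.2 under IgG. The proliferation marker Mki67 was at 4608, 779.5 and 3495 in the Anti PDL1 mice, against 1214, 57.7 and 2327 in the Anti CTLA4 mice and 1251 to 2521 under IgG. The 3 libraries with the most Apoe were those with the least Mki67. In bulk tumour RNA, fewer cells of a type and less RNA per cell cannot be told apart.

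Tumours resembled each other across the antibodies as much as within them. Over the 619 genes, the median absolute log2 difference between 2 libraries was 0.43 to 1.36 within Anti PDL1, 0.49 to 1.02 within Anti CTLA4, 0.35 to 1.20 between the antibodies and 0.21 to 0.30 within IgG. Anti PDL1 1 was nearest to Anti CTLA4 3, at 0.35. Anti PDL1 2 was nearest to Anti CTLA4 2, at 0.42, and lay 1.36 from Anti PDL1 1. Anti PDL1 2 held the highest of the 6 values in 42.3% of the genes and Anti PDL1 1 the lowest in 37.3%. Of the summed squared deviations over all genes tested, 8.77% lay between the antibodies and the rest between mice of a group. With so few mice, some share lies between groups even where the antibodies do not differ, so this share is no measure of an antibody effect.

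**Figure D1:**
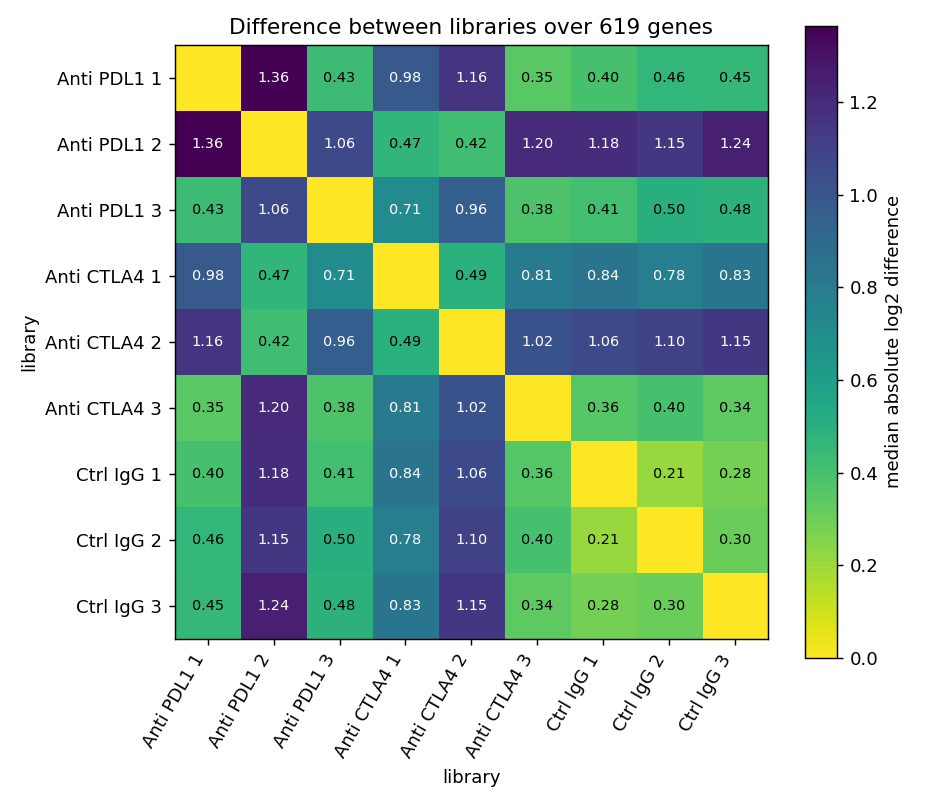
Median absolute log2 difference over 619 genes between each pair of libraries, with the Anti PDL1, Anti CTLA4 and Ctrl IgG mice on both axes and the value printed in each cell. Anti PDL1 2 lies 0.42 and 0.47 from Anti CTLA4 2 and 1, but 1.36 and 1.06 from Anti PDL1 1 and 3.

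No gene passed the test of a difference between the antibodies. In limma with Benjamini-Hochberg adjustment, 0 of 619 genes were higher under anti-PDL1 (0%) and 0 were lower (0%), with a smallest adjusted p of 0.9999. At an unadjusted p under 0.05, 2 genes were higher (0.323%) and 0 were lower (0%). Log2 differences, Anti PDL1 minus Anti CTLA4, were positive in 249 genes and negative in 370, with a median of -0.105. The 95% confidence interval of a gene reached a median of 1.33 log2 units to each side, which leaves room for sizeable differences in most genes. With estimated library weights, limma called 18 genes higher and 179 lower, but the estimate of those weights stopped before it converged. Weights estimated gene by gene gave 0 and 0. They still put 165 genes at an unadjusted limma p under 0.05 and moved the median difference to -0.443. In each of 37 gene lists 0 members passed, and list medians ran between -0.57 and 0.802.

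As listed, all 3 Anti PDL1 values lay above all 3 Anti CTLA4 values in 13 genes (2.1%) and below them in 11 genes (1.78%). With floor values counted at their limit in the lower group and at their lowest in the higher group, this held in 8 genes (1.29%) and 11 genes (1.78%). The 8 genes higher under anti-PDL1 were Axin1, Cxcl14, Icam1, Il18bp, Pdzk1ip1, Pvr, Spp1 and Tlr8. The 11 lower genes were Cdk2, Dll4, Egf, Hes1, Hmgb1, Mrpl19, Ndufa4l2, Prdm1, Ptcd2, Smad5 and Snai1. Some of these separations were narrow. The nearest Anti PDL1 and Anti CTLA4 values were 639.55 and 633.94 for Il18bp, 337.65 and 333.26 for Pvr, and 86.71 and 87.67 for Mrpl19. Pvr, Tlr8, Cdk2, Hmgb1, Mrpl19, Ptcd2, Smad5 and, below, Lif are named for this order, after their values were seen.

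The genes with an unadjusted p under 0.05 were Spp1 and Pdzk1ip1. Spp1 encodes osteopontin, a secreted matrix protein and cytokine made by macrophages and tumour cells. It was at 266, 845 and 371 normalized counts in Anti PDL1 mice 1, 2 and 3, against 171, 210.0 and 56.2 in Anti CTLA4 mice 1, 2 and 3 and 63.7, 99.0 and 74.0 under IgG. Each Anti PDL1 mouse lay above each Anti CTLA4 mouse, and means were 494 ± 308 and 146 ± 79.9 (SD, n = 3 each). The log2 difference was 1.78 with a 95% confidence interval of 0.17 to 3.395. The range within Anti PDL1 was 1.66 log2 units and that within Anti CTLA4 1.88, so that the difference was no larger than the wider of them.

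Pdzk1ip1 encodes a small membrane protein that binds the scaffold protein PDZK1. It was at 142, 143 and 77.5 in the Anti PDL1 mice, against 49.5, 63.0 and 22.5 in the Anti CTLA4 mice and 49.2, 22.5 and 34.2 under IgG. The antibody groups did not overlap, and the log2 difference of 1.47 had an interval of 0.21 to 2.73. The limma unadjusted p was 0.0349 for Spp1 and 0.0277 for Pdzk1ip1. An exact two-sided permutation test over 3 and 3 mice gave p = 0.1 for both genes, the smallest that 20 arrangements allow. Without Anti CTLA4 3, the lowest mouse of its group in both genes, the log2 difference was 1.202 for Spp1 and 1.04 for Pdzk1ip1. With all 6 libraries at a common floor, the log2 difference was 1.78 for Spp1 and 1.047 for Pdzk1ip1. The Pdzk1ip1 values of Anti CTLA4 1 and 2 lay little above the highest negative probes there, at 40.5 and 57.7.

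The log2 difference exceeded the wider of the within-group ranges in 7 of the 619 genes tested. These were Axin1, Ccl12, Cxcl14, Dll4, Ndufa4l2, Pdzk1ip1 and Tlr8. With so few mice, some genes can meet this rule even where the antibodies do not differ, and how many would was not tested. The place of Ccl12 among the 7 rests on floor values. Its log2 difference was 0.95 as listed and 0.102 with all 6 libraries at a common floor. Cxcl14, a chemokine, was at 112, 96.7 and 71.3 in the Anti PDL1 mice, against 58.5, 60.4 and 53.4 in the Anti CTLA4 mice and 60.5, 48.9 and 48.6 under IgG (log2 difference 0.67, interval -0.25 to 1.59). Axin1, a scaffold of the complex that degrades beta-catenin, was at 438, 458 and 369 in the Anti PDL1 mice, against 274, 318 and 327 in the Anti CTLA4 mice (log2 difference 0.46, interval -0.43 to 1.35). The log2 range within Anti PDL1 was 0.639 for Cxcl14 and 0.311 for Axin1, and that within Anti CTLA4 0.175 and 0.252. For Cxcl14 the wider range was thus nearly as large as the difference. Ranges below the difference are what placed these genes among the 7, so they are no further support. Both limma intervals, which draw on the spread of all genes, included 0. Tlr8, an endosomal sensor of RNA in myeloid cells, was at 119, 166 and 154 in the Anti PDL1 mice, against 101, 105 and 98.3 in the Anti CTLA4 mice (log2 difference 0.51, interval -0.41 to 1.43).

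**Figure D2:**
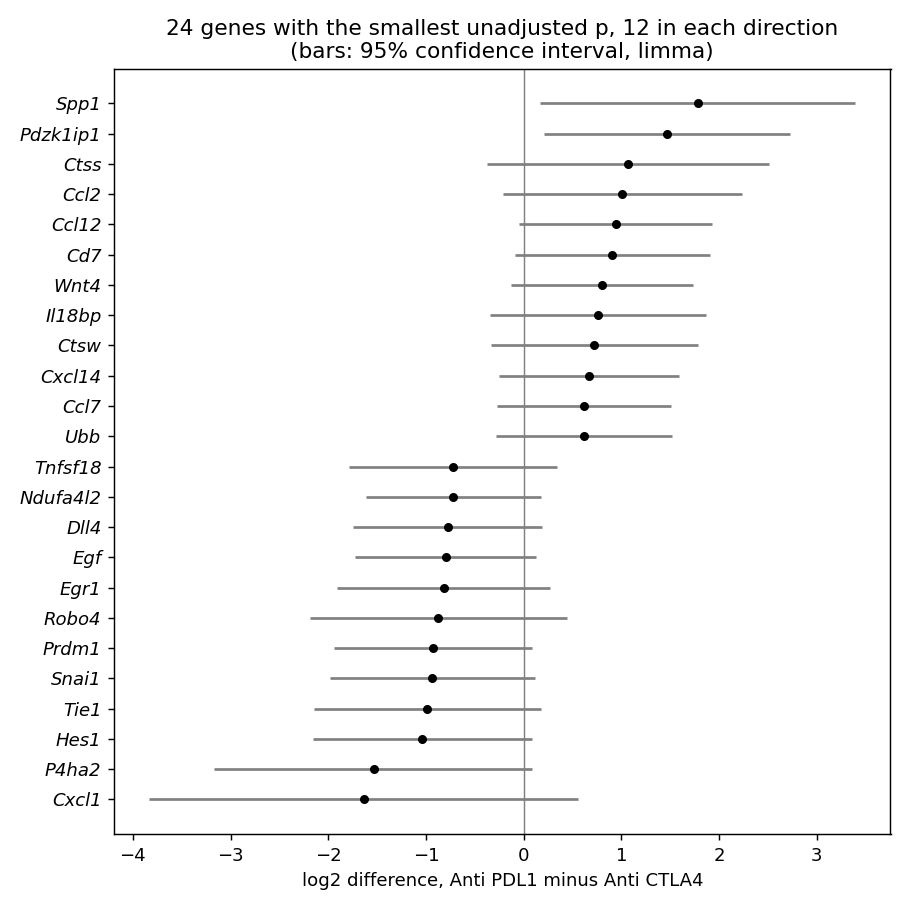
Log2 difference, Anti PDL1 minus Anti CTLA4, of the 12 genes in each direction with the smallest unadjusted p, with points for the limma estimate and bars for the 95% confidence interval. Of these 24 intervals, those of Spp1 (0.17 to 3.395) and Pdzk1ip1 (0.21 to 2.73) lie clear of 0.

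The transcript of the ligand PD-L1 was measured in all 6 tumours, while those of the receptors PD-1 and CTLA4 were at or near the floor. Cd274 was at 80.8, 424 and 127 in the Anti PDL1 mice, against 216, 89.2 and 124 in the Anti CTLA4 mice and 81.4, 83.2 and 69.5 under IgG. The groups overlapped, and the log2 difference was 0.29 (interval -1.38 to 1.96). Pdcd1lg2, which encodes the second ligand of PD-1, was at 42.7, 20 and 25.8 in the Anti PDL1 mice, against 58.5, 20 and 41.2 in the Anti CTLA4 mice, with 1 library of each group at the floor (log2 difference -0.37, interval -1.58 to 0.85). Pdcd1 was at the floor in all 3 Anti PDL1 libraries and in 2 Anti CTLA4 libraries, with 29.0 in Anti CTLA4 3. Ctla4 had the same pattern, with 34.6 in Anti CTLA4 3. Under IgG, Pdcd1 was at 22.57, 41.61 and 47.47 and Ctla4 at 33.05, 52.85 and 34.22. Neither receptor was tested. A listed 20 may hold up to 42.0 in Anti PDL1 2, 45.0 in Anti CTLA4 1 and 52.5 in Anti CTLA4 2, which covers most of these IgG values.

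Ligands and partners of CTLA4 overlapped between the antibodies. Cd80 was at 44.0, 73.5 and 62.7 in the Anti PDL1 mice, against 74.2, 52.5 and 45.9 in the Anti CTLA4 mice (log2 difference 0.061, interval -0.92 to 1.04). Cd86 was at 183, 384 and 168 in the Anti PDL1 mice, against 283, 199 and 203 in the Anti CTLA4 mice (log2 difference 0.015, interval -1.13 to 1.16). These intervals leave room for about 1 log2 unit either way. Cd28 had a difference of -0.48 (interval -1.81 to 0.85). Icos, an inducible costimulatory receptor of T cells, had one of -0.24 (interval -2.01 to 1.52).

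T cell and cytotoxic transcripts were low under both antibodies. Cd8a, Foxp3, Prf1 and Ifng, which encode a CD8 chain, the regulatory T cell factor, perforin and interferon gamma, were at the floor in all 6 libraries. Cd8b1 was above it in Anti PDL1 2, at 42.0, and in Anti CTLA4 3, at 26.2. Of 11 measured T cell markers, 5 were tested and 0 passed, with 2 positive differences and a median of -0.070, beside -0.105 over all genes. Cd4 was at 102, 96.7 and 72.6 in the Anti PDL1 mice, against 94.4, 81.4 and 108 in the Anti CTLA4 mice (log2 difference -0.070, interval -1.005 to 0.86). Cd3e, a signalling chain of the T cell receptor, was at 29.6, 153 and 41.8 in the Anti PDL1 mice, against 92.2, 115 and 31.8 in the Anti CTLA4 mice (log2 difference -0.27, interval -2.08 to 1.54). The median of the T cell list was 0.036 with median scaling and 0.198 without Anti PDL1 1. It was -0.205 without Anti PDL1 2 and -0.518 without Anti PDL1 2 and Anti CTLA4 2. Cd4 and Cd3e overlapped between the antibodies, and Cd3e was highest in Anti PDL1 2 and Anti CTLA4 2.

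Of 6 measured cytotoxic genes, 5 were tested, 0 passed and 5 had a positive difference, with a median of 0.45. Gzma, a granzyme, was at 78.2, 195 and 224 in the Anti PDL1 mice, against 148, 60.4 and 94.5 in the Anti CTLA4 mice (log2 difference 0.67, interval -0.72 to 2.05). Nkg7, a granule protein of cytotoxic lymphocytes, was at 46.0, 94.5 and 71.3 in the Anti PDL1 mice, against 67.4, 20 and 63.7 in the Anti CTLA4 mice, where the listed 20 of Anti CTLA4 2 may hold up to 52.5. Gzmb had a difference of 0.38 (interval -0.81 to 1.57) and the same library at the floor. The median of the list was 0.12 without Anti CTLA4 2, 0.16 without Anti PDL1 2 and -0.19 without both.

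Among other inhibitory receptors, 3 of 7 were tested and 0 passed, with 3 negative differences and a median of -0.38. Lag3 was at 53.2, 122 and 46.7 in the Anti PDL1 mice, against 85.4, 139 and 65.5 in the Anti CTLA4 mice (log2 difference -0.45, interval -1.72 to 0.83). Vsir, which encodes the checkpoint VISTA, had a difference of -0.33 (interval -1.28 to 0.61). The median of the list was -0.22 without Anti CTLA4 2 and -0.81 without Anti PDL1 2. Of 7 regulatory T cell genes 2 were tested, of 7 B and plasma cell genes 1, and of 3 NK cell genes 2, with 0 passing in each.

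MHC class II genes, whose products present antigen to CD4 T cells, had positive differences in 7 of 7 tested members, with a median of 0.802 beside -0.105 over all genes, and 0 passed. H2-Ab1, a class II beta chain, was at 462, 7402 and 2590.2 normalized counts in the Anti PDL1 mice, against 1807, 591 and 479 in the Anti CTLA4 mice and 184, 156 and 245 under IgG. Its log2 difference was 1.37 (interval -1.104 to 3.85). H2-Aa, an alpha chain, was at 809, 8043 and 3055 in the Anti PDL1 mice, against 2626, 843 and 867 in the Anti CTLA4 mice (log2 difference 1.12, interval -1.02 to 3.27). For both chains Anti PDL1 2 and 3 lay above every Anti CTLA4 mouse and Anti PDL1 1 below every one. Ctss, a lysosomal protease that readies class II molecules for peptide, was at 720.0, 2979 and 1227 in the Anti PDL1 mice, against 949, 541 and 553 in the Anti CTLA4 mice (log2 difference 1.07, interval -0.37 to 2.51). The median of the list was 0.004 without Anti PDL1 2, 1.54 without Anti PDL1 1 and -0.195 without Anti PDL1 2 and Anti CTLA4 2.

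Macrophages can carry MHC class II, and the part of macrophage genes in the class II values was not tested. Of 11 macrophage genes tested, 0 passed and 7 were positive, with a median of 0.15. The median was -0.19 without Anti PDL1 2, 0.41 without Anti PDL1 1 and -0.036 without Anti CTLA4 3. The mean log2 value of the list was 7.12, 8.69 and 7.92 in Anti PDL1 mice 1, 2 and 3, against 8.33, 7.68 and 7.26 in Anti CTLA4 mice 1, 2 and 3 and 7.15, 6.96 and 6.98 under IgG. Cd68, a lysosomal protein of macrophages, was at 1355, 943 and 898 in the Anti PDL1 mice, against 762, 346 and 1247 in the Anti CTLA4 mice (log2 difference 0.599, interval -0.72 to 1.92). Fcgr1, a high-affinity IgG receptor, had a difference of 0.87 (interval -0.598 to 2.34), and Cd163, a scavenger receptor, one of -0.76 (interval -2.57 to 1.05). The members thus pointed both ways. Cd84, a receptor of the SLAM family, was at 194, 229 and 178 in the Anti PDL1 mice, against 200.1, 160.1 and 179.7 in the Anti CTLA4 mice and 87.1, 119 and 117 under IgG (log2 difference 0.15, interval -0.77 to 1.07). Slamf7, another member of that family, had a difference of -0.38 (interval -1.46 to 0.69), and Nos2, the inducible nitric oxide synthase, one of -0.47 (interval -1.62 to 0.69).

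**Figure D3:**
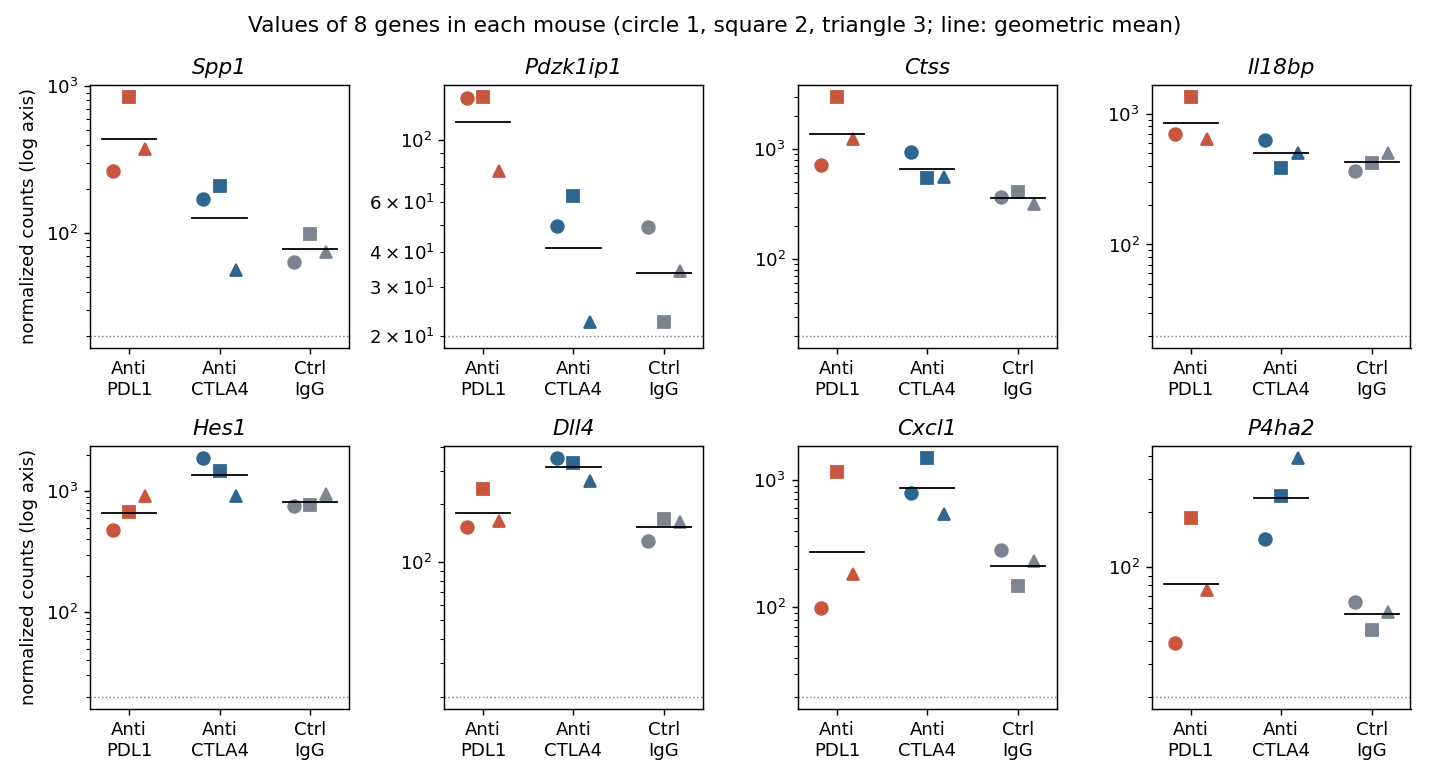
Normalized counts of 8 genes in each mouse on a log axis, with Anti PDL1, Anti CTLA4 and Ctrl IgG from left to right, 1 point for each mouse, lines at geometric means and a dotted line at the floor of 20. The 3 Anti PDL1 points lie above the 3 Anti CTLA4 points for Spp1 (266 to 845 against 56.2 to 210.0) and below them for Dll4 (153 to 239.5 against 265 to 351).

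Of 10 monocyte and neutrophil chemokine genes, 7 were tested and 0 passed, with 2 positive differences, 5 negative ones and a median of -0.101, beside -0.105 over all genes. The positive ones were Ccl2 and Ccl7, and the others ran between -1.64 and -0.062. Ccl2, a monocyte attractant, was at 118, 223 and 94.7 in the Anti PDL1 mice, against 101, 60.4 and 48.7 in the Anti CTLA4 mice and 111, 115 and 46.4 under IgG (log2 difference 1.01, interval -0.21 to 2.23). The related Ccl12 was at 44.7, 65.1 and 38.1 in the Anti PDL1 mice, against 20, 20 and 36.5 in the Anti CTLA4 mice, where Anti CTLA4 1 and 2 were at the floor. Cxcl1, a neutrophil attractant, pointed the other way, at 98.5, 1143 and 182 in the Anti PDL1 mice, against 780.1, 1488 and 539 in the Anti CTLA4 mice and 283, 146 and 232 under IgG (log2 difference -1.64, interval -3.83 to 0.56). Its groups overlapped because Anti PDL1 2 lay among the Anti CTLA4 mice. Il18bp, a secreted inhibitor of interleukin 18, was at 699.6, 1343 and 639.5 in the Anti PDL1 mice, against 634, 386 and 504 in the Anti CTLA4 mice (log2 difference 0.76, interval -0.34 to 1.86). Its groups did not overlap, but Anti PDL1 3 and Anti CTLA4 1 differed by little. Ccl12, Ccl7, Cd7, Lif and Wnt4 were without overlap as listed, but not with floor values at their limits, and 3 or 4 of their 6 libraries exceeded the highest negative probe.

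Neutrophil genes had 3 negative differences of 4 tested and a median of -0.57, and 0 passed. S100a8, a calcium-binding protein abundant in neutrophils, was at 85.4, 254 and 226 in the Anti PDL1 mice, against 171, 173 and 1559 in the Anti CTLA4 mice. Its partner S100a9 was at 41.4, 94.5 and 138 in the Anti PDL1 mice, against 47.2, 81.4 and 878 in the Anti CTLA4 mice. Anti CTLA4 3 alone was high in both genes. Without it the median of the list was -0.051, and the log2 difference was -0.016 for S100a8 and 0.39 for S100a9, against -1.07 and -0.88 with all 6.

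The Notch ligand Dll4 and the Notch target Hes1 had lower values in every Anti PDL1 mouse than in any Anti CTLA4 mouse. Dll4, which endothelial cells express in sprouting vessels, was at 153, 239.5 and 164 in the Anti PDL1 mice, against 351, 328 and 265 in the Anti CTLA4 mice and 129, 168 and 162 under IgG. Means were 185 ± 47.2 and 315 ± 44.5 (SD, n = 3 each), with a log2 difference of -0.78 (interval -1.75 to 0.19). Hes1, a repressor of transcription, was at 481, 674 and 908 in the Anti PDL1 mice, against 1902, 1469.8 and 909.9 in the Anti CTLA4 mice and 755, 768 and 956 under IgG (log2 difference -1.04, interval -2.16 to 0.089). The separation of Hes1 is narrow, since Anti PDL1 3 and Anti CTLA4 3 differed by little. Of 8 Notch genes tested 0 passed, 4 were positive and 4 negative, with a median of -0.008 that turned positive under median, housekeeping and quantile scaling (0.098, 0.002 and 0.024).

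The endothelial receptors Tie1 and Robo4 were also among the 12 lower genes with the smallest p. Tie1 was at 134, 288 and 127 in the Anti PDL1 mice, against 357, 417 and 257 in the Anti CTLA4 mice (log2 difference -0.99, interval -2.15 to 0.18). Robo4 was at 125, 384 and 193 in the Anti PDL1 mice, against 443, 504 and 257 in the Anti CTLA4 mice (log2 difference -0.87, interval -2.19 to 0.44). In both genes Anti PDL1 2 alone overlapped the Anti CTLA4 mice. Of 3 genes in the endothelial marker list tested, 0 passed and the signs were mixed. Kdr, a receptor for VEGF, had a difference of -0.26 (interval -2.46 to 1.95), and Pecam1, an adhesion molecule, one of 0.017. Cdh5, an endothelial cadherin, had a difference of 0.17 (interval -0.96 to 1.297).

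P4ha2, a collagen prolyl hydroxylase subunit, was at 38.8, 185 and 75.0 in the Anti PDL1 mice, against 142, 244 and 391 in the Anti CTLA4 mice and 65.3, 46.1 and 57.4 under IgG (log2 difference -1.54, interval -3.16 to 0.091). Egr1, an immediate-early transcription factor, was at 377, 761 and 343 in the Anti PDL1 mice, against 809, 696 and 963 in the Anti CTLA4 mice (log2 difference -0.82, interval -1.91 to 0.27). In both genes Anti PDL1 2 lay within the Anti CTLA4 range and the other Anti PDL1 mice below it. Prdm1, which encodes the lymphocyte differentiation factor BLIMP1, was lower in each Anti PDL1 mouse than in any Anti CTLA4 mouse, at 30.9, 60.9 and 30.8 in the Anti PDL1 mice, against 76.4, 84.0 and 64.6 in the Anti CTLA4 mice (log2 difference -0.93, interval -1.94 to 0.086). Egf, Ndufa4l2 and Snai1 had the same order at similarly low values, with differences of -0.799, -0.72 and -0.93. For Prdm1, Egf, Ndufa4l2 and Snai1, 5 of 6 libraries exceeded their highest negative probe, and Anti PDL1 2 lay below its own, at 63.0. Negative probes averaged 26.1 and 36.4 in Anti CTLA4 1 and 2, against 8.0 and 15.7 in Anti PDL1 1 and 3. The part of this background in the order was not tested.

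Interferon response genes varied widely between mice of a group. Type I interferon response genes were positive in 13 of 19 tested, with a median of 0.16, and interferon-gamma response genes in 4 of 15, with a median of -0.14. In both lists 0 passed. The mean log2 value of the type I list was 7.54, 10.01 and 7.73 in Anti PDL1 mice 1, 2 and 3, against 8.76, 8.57 and 7.49 in Anti CTLA4 mice 1, 2 and 3 and 7.34, 7.25 and 6.91 under IgG. Anti PDL1 2 was highest, and Anti PDL1 1 and 3 lay below Anti CTLA4 1 and 2. In the interferon-gamma list Anti PDL1 2 was highest too, and Anti PDL1 1 and 3 lay below all 3 Anti CTLA4 mice. Without Anti PDL1 2, the medians were -0.63 for the type I list and -0.79 for the interferon-gamma list.

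Cxcl9, a T cell attractant induced by interferon gamma, was at 31.5, 712 and 66.4 in the Anti PDL1 mice, against 283, 78.7 and 113 in the Anti CTLA4 mice and 46.0, 48.4 and 47.5 under IgG (log2 difference -0.24, interval -2.96 to 2.47). Cxcl10, a related attractant, was at 765, 458 and 226 in the Anti PDL1 mice, against 414, 84.0 and 656 in the Anti CTLA4 mice (log2 difference 0.596, interval -1.42 to 2.61). In each group the mouse with the most Cxcl9 was not the one with the most Cxcl10. Irf1, a transcription factor induced by interferon, had a difference of -0.023 (interval -1.64 to 1.59).

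MHC class I genes had 12 negative differences of 13 tested, with a median of -0.18 beside -0.105 over all genes, and 0 passed. The exception in sign was B2m, the invariant light chain, at 8991, 134399.6 and 30071 in the Anti PDL1 mice, against 31771, 40021 and 4913 in the Anti CTLA4 mice and 4583, 3490.1 and 2406 under IgG (log2 difference 0.85, interval -2.08 to 3.78). The mean log2 value of the list was 7.38, 10.46 and 8.47 in Anti PDL1 mice 1, 2 and 3, against 9.71, 9.297 and 8.03 in Anti CTLA4 mice 1, 2 and 3 and 7.54, 7.298 and 7.42 under IgG. Anti PDL1 2, Anti CTLA4 1 and Anti CTLA4 2 were highest, and these are also the tumours with the most Apoe, whose part in these values was not tested. The median was 0.59 without Anti PDL1 1 and -1.25 without Anti PDL1 2.

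**Figure D4:**
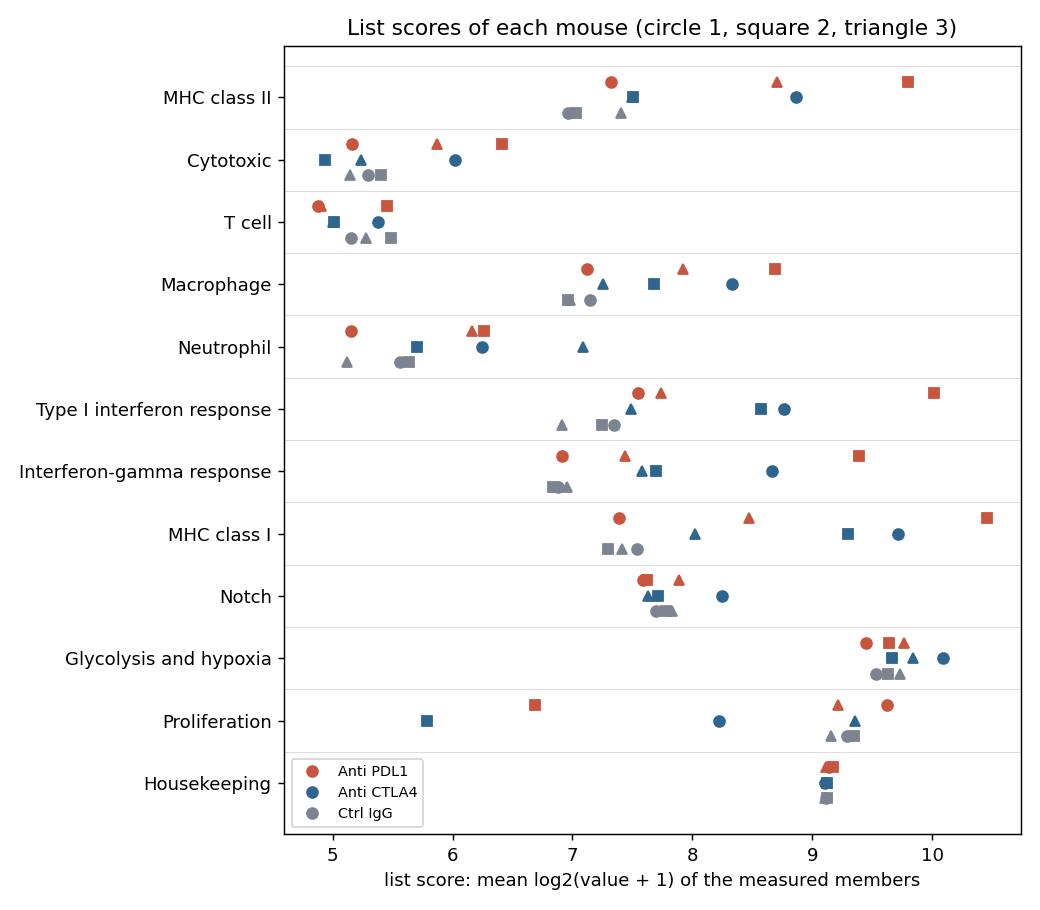
Mean log2 value of gene lists in each mouse, on the log2(value + 1) scale, with Anti PDL1 above Anti CTLA4 above Ctrl IgG in each row and 1 point for each mouse. In the MHC class I and class II, interferon and proliferation rows the antibody groups overlap and spread more widely than the IgG mice.

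Proliferation genes were positive in 14 of 16 tested, with a median of 0.56, and 0 passed. The mean log2 value of the list was 9.62, 6.69 and 9.21 in Anti PDL1 mice 1, 2 and 3, against 8.22, 5.79 and 9.36 in Anti CTLA4 mice 1, 2 and 3 and 9.29, 9.35 and 9.15 under IgG. Anti PDL1 1 and 3 and Anti CTLA4 3 lay near the IgG tumours, and the other 3 below them. Mki67, whose values are given above, had a log2 difference of 2.08 (interval -1.25 to 5.41), and 0.47 without Anti CTLA4 2. The median of the list was -0.26 without Anti CTLA4 2 and 1.496 without Anti PDL1 2.

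DNA repair genes were positive in 9 of 11 tested, with a median of 0.41, and 0 passed. The median was 0.081 without Anti CTLA4 2, 0.17 without Anti PDL1 1 and 0.75 without Anti PDL1 2. Brip1, a DNA helicase of repair, was at 307, 172 and 248 in the Anti PDL1 mice, against 153, 102 and 245 in the Anti CTLA4 mice (log2 difference 0.59, interval -0.58 to 1.76). Myc itself was at 119, 523 and 125 in the Anti PDL1 mice, against 171, 215 and 119.8 in the Anti CTLA4 mice and 126, 103 and 80.6 under IgG (log2 difference 0.28, interval -1.304 to 1.85). Whether the panel's probe reads the MYC that drives these tumours was not stated. Glycolysis and hypoxia genes were negative in 11 of 14 tested, with a median of -0.33 and 0 passing. Pfkfb3, an enzyme that activates glycolysis, was at 189, 307 and 262 in the Anti PDL1 mice, against 387, 286 and 509 in the Anti CTLA4 mice (log2 difference -0.63, interval -1.66 to 0.403).

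Liver genes had wide ranges within a group, and their differences between the antibodies were far smaller than those ranges. A range above 3 log2 units was found in 82 genes within Anti PDL1 and in 51 within Anti CTLA4. Tdo2, which encodes the tryptophan-degrading enzyme of hepatocytes, was at 184, 15151 and 2024 in the Anti PDL1 mice, against 5051, 8349 and 251 in the Anti CTLA4 mice, a difference of -0.302 log2 units (interval -4.68 to 4.08). Fbp1, an enzyme of gluconeogenesis, was at 976, 43882 and 6287 in the Anti PDL1 mice, against 20724, 53252 and 1475 in the Anti CTLA4 mice (log2 difference -0.86, interval -4.93 to 3.202). Arg1, the urea cycle arginase that some macrophages also express, was at 1624, 22549 and 4059 in the Anti PDL1 mice, against 10431, 19837 and 2186 in the Anti CTLA4 mice (log2 difference -0.54, interval -3.32 to 2.25). In the 3 genes Anti PDL1 2, Anti CTLA4 1 and Anti CTLA4 2 were high. Egfr, a growth factor receptor, was at 143, 2736 and 1015 in the Anti PDL1 mice, against 6623, 12042 and 272 in the Anti CTLA4 mice (log2 difference -1.92, interval -5.75 to 1.904). A2m, a protease inhibitor, was highest in Anti PDL1 1 and Anti CTLA4 3, at 2247, 60.9 and 178 in the Anti PDL1 mice, against 184, 20 and 4152 in the Anti CTLA4 mice.

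**Figure D5:**
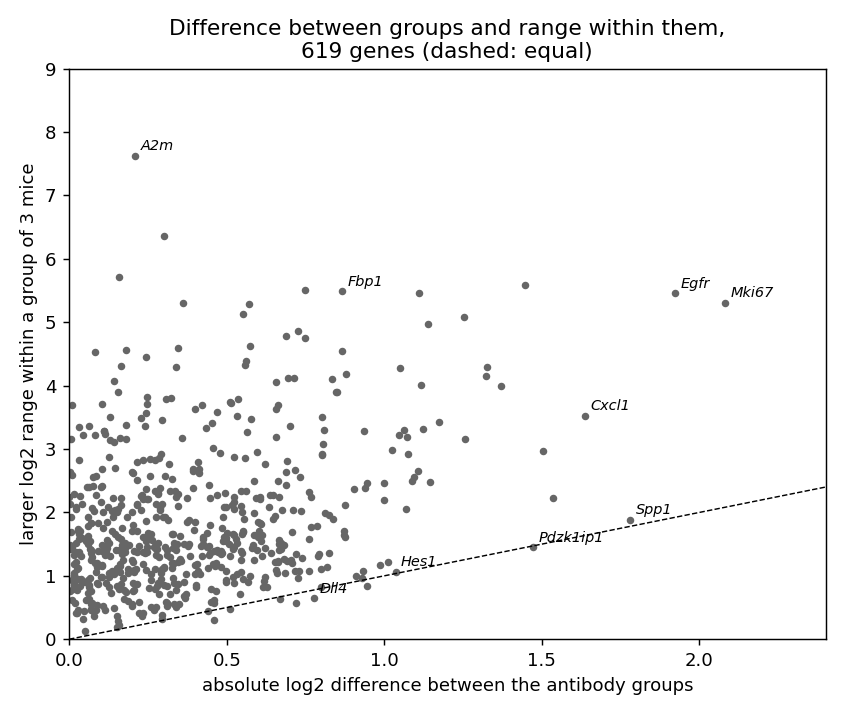
Each of the 619 genes by the absolute log2 difference between Anti PDL1 and Anti CTLA4 on the x axis and by the wider of its log2 ranges within these groups on the y axis, with a dashed line where they are equal. The 7 genes below the line differ by more than that range, Ccl12 only through floor values, while Mki67 (difference 2.08, range 5.31) and A2m (range 7.63) lie far above it.

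The median SD within a group was 0.748 log2 units for Anti PDL1 and 0.666 for Anti CTLA4, and 0.231 for IgG. A range above 1 log2 unit was found in 427 genes within Anti PDL1 and in 398 within Anti CTLA4, and in 50 within IgG. Housekeeping genes had a median difference of -0.016, with 9 of 19 positive. Their mean log2 value was 9.141 ± 0.03 under anti-PDL1 and 9.118 ± 0.01 under anti-CTLA4 (SD, n = 3 each). Whether the deposited values were scaled to these genes was not stated, so a difference near 0 is no check on the contrast. The interval reached less than 1 log2 unit to each side in 79 genes.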

How the data were processed

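Expression was measured with the NanoString nCounter mouse IO360 panel (770 genes, 14 control probes) in total RNA of fixed liver tumours, per the labels' protocols. The deposited values are a signal, normalized counts; the software and method of the authors' normalization were not stated in the sources used here. From the values themselves, each library's gene values were whole counts times 1 factor (100% of values under 3000, within 0.0075), with lower values set to 20.

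Computed here: log2(value + 1), limma-trend (limma 3.58.1, R 4.3.3) on the 6 libraries of the contrast alone, genes above 20 in at least 4, two-sided, Benjamini-Hochberg, threshold 0.05. Gene symbols matched RefSeq for 764 genes and by synonym for 6. Named genes are the 12 smallest p in each direction, the 6 widest ranges in each group, the 2 smallest p of each list, and a set of checkpoint, T cell and tumour genes. The members, lists, tests and the choice of libraries were made with earlier results of these data known. The test code was checked on simulated data. A planned count-based test was left out, since floored normalized values are no counts. Some genes covered by the rule are not reported here. Precision is limited by 3 mice a group.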

Additional observations from a re-analysis of the deposited data

How the results depend on the processing

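Counts of genes called were 0 higher and 0 lower under anti-PDL1 in 21 of the 22 alternative settings. The exception was the estimated library weights (18 higher, 179 lower), whose estimate stopped before it converged, with weights of 0.194 for Anti PDL1 2 and 8.56 for Anti PDL1 3; gene-by-gene weights, added after seeing the data, gave 0 and 0 and a smallest limma adjusted p of 0.1737. Leaving out 1 library at a time gave 0 and 0 throughout. The number of genes without overlap, 24 in all, was 41 with median scaling, 46 with quantile normalization and 202 without Anti PDL1 2 and Anti CTLA4 2, where fewer libraries make separation easier. It ran between 35 and 162 when 1 library was left out, lowest without Anti PDL1 3 and highest without Anti PDL1 2. With floor values at the limit of their library, an alternative added after seeing the data, it was 19. Median scaling moved the median difference of all genes to 0. Of 112 named genes tested, 62 kept their sign under every alternative, and of 37 lists 8 kept the sign of their median. Deviations from the group means correlated at -0.439, 0.756 and 0.474 between the same-numbered mice 1, 2 and 3. Between Anti PDL1 1 and Anti CTLA4 3 the correlation was 0.826. With 3 mice a group, these values cannot show whether the numbers pair the samples. With a replicate block, limma called 0 higher and 0 lower. The planned count-based test was not run. Low genes are limited by floors of up to 52.5 normalized counts and by 3 mice a group.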
